A study of Rattus norvegicus with 11 samples.

Results

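The natriuretic peptides and their receptors were followed in the aging rat heart, through every array reading assigned to Nppa, Nppb, Npr1, Npr2 or Npr3. These 5 genes were chosen by their gene symbols in the array's annotation, and 11 probe sets carried 1 of them, out of 8740 probe sets that are not controls. A probe set is a group of short probes combined into 1 reading, here a linear intensity. Nppa had 4 probe sets, Npr1 had 3, Npr3 had 2, and Nppb and Npr2 had 1 each. Total RNA was taken from ventricles of Fischer-344 rats, a strain often used in aging work. The old group held 6 arrays from rats of 22 months, and the young group held 5 arrays from rats of 4 months. The labels name no treatment or genotype in either group and do not say whether each array is a separate animal, so p-values cover only the spread among these samples, and that spread may be technical.

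Nppa encodes the atrial natriuretic peptide and Nppb the B-type natriuretic peptide, hormones that heart muscle releases when it is stretched. Both bind the guanylyl cyclase receptor Npr1, which makes cGMP and so promotes salt excretion and vessel relaxation, while Npr2 is the cyclase receptor for the C-type peptide and Npr3 clears the peptides from the circulation. In the adult heart Nppa is made mainly by atrial muscle, and its transcript in the ventricle is a widely used marker of load and of the fetal gene programme.

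Nppa and Nppb are neighbours on rat chromosome 5, with 0 annotated genes between them in the RefSeq table of assembly GRCr8. Their promoters are shown because the pair shares a locus and a strand and both peptides are described here. RefSeq (GRCr8) places the Nppa window at chr5:163711934-163712233 and the Nppb window at chr5:163699758-163700057, both on the plus strand, from 250 bases before to 50 bases after the start of the gene. Capitals mark GATAA, the core bound by GATA factors, searched on both strands.

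Nppa: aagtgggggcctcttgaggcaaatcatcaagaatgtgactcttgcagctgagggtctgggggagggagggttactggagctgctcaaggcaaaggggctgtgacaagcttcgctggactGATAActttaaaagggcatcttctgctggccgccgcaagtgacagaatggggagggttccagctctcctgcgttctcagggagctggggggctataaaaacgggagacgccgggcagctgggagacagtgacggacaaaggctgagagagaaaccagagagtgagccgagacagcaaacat

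Nppb: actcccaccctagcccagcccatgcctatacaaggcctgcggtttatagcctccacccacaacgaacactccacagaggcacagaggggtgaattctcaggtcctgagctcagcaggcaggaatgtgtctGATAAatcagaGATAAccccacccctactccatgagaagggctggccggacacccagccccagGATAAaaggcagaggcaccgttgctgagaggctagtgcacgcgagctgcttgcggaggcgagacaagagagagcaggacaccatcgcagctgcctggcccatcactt

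The Nppa window held 1 GATAA, at position -131 to -127 from the gene's start. The Nppb window held 3, the first 2 of them at -120 to -116 and -109 to -105, and the last at -57 to -53. Of 33469 rat promoter windows of the same length, 26.5% held at least 1 GATAA and 1.02% held at least 3. CATTCC, the core of the M-CAT element bound by TEAD factors, occurred on the reverse strand of Nppb at -131 to -126, was not in the Nppa window, and was in 14.2% of all windows. AAGTG, the core of the NKX2-5 element, occurred 2 times in Nppa and 1 time in Nppb and was in 46.2% of all windows. TATAAA occurred in both windows, at -39 to -34 in Nppa and on the reverse strand at -208 to -203 in Nppb, against 14.2% of all windows. A CArG box, the element of serum response factor, was searched in its strict form (CCWWWWWWGG, W being A or T). That form was in neither window and in 1.64% of all windows. Looser forms were not searched, such as ctttaaaagg right after GATAA in the Nppa window. The windows of Npr1 and Npr3 held 0 matches to GATAA. None of these motifs overlapped another in the Nppa or Nppb window, and a match describes letters only.

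Old was compared with young on the log2 scale with limma, fitted over all 5244 probe sets bright enough to test, and differences are given as old minus young with the standard error (SE). Of the 11 probe sets of the 5 genes, 9 passed the filter on dim readings, and both Npr3 probe sets did not. Adjusted p-values (Benjamini-Hochberg) are over all 5244 probe sets. At an adjusted p under 0.05, 0 of the 9 were called, as were 0% of all tested probe sets. At an unadjusted p under 0.05, 4 of the 9 were higher in old, and all 4 read Nppa, so they count 1 gene. For E00698cds_s_at that limit was missed with arrays centred on their medians (0.88, limma unadjusted p = 0.132), without the trend (0.0605), with dim probe sets kept (0.0503), and when any of 5 arrays was left out, namely old replicates 1 and 4 and young replicates 2, 3 and 5 (0.0516 to 0.0954). Of all tested probe sets, 3.39% were higher in old at that limit, and 394 passed it in either direction. The ventricular light chain Myl2 had a mean log2 reading of 15.90 ± 0.18 (SD, n = 6) for old and 15.79 ± 0.19 (SD, n = 5) for young arrays, so the arrays carried the transcript that defines ventricular muscle. Old replicates 3 and 4 stood apart by the 3' over 5' ratio of the GAPDH control, with log2 values of 3.39 and 4.09 against 0.77 or less in the other 9 arrays. Bacterial spike-in controls were bright on 5 arrays, 4 old and 1 young, and dim on 6, 2 old and 4 young. The classes were cut at the widest gap, 1.76, in the mean log2 reading of these controls. Young replicate 4, the only young array classed as bright, lay between the others at 11.97. The dim arrays read up to 10.20 and the bright old arrays from 13.19 to 15.24.

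Nppa read higher in old by 1.18 to 1.87 on the log2 scale in its 4 probe sets, a ratio of 2.26 to 3.64, and none of them passed the adjusted test. In old, the probe set with the highest mean (E00698cds_s_at) ranged from 12.88 to 14.88 on the log2 scale, with a median of 13.56. In young it read 14.02, 11.54, 11.28, 13.65 and 11.93 in replicates 1 to 5. Young replicates 1 and 4 lay at the old level and young replicates 2, 3 and 5 lay below every old array, so the groups overlapped. All 6 old arrays lay above the young mean. The old mean was 13.66 ± 0.82 (SD, n = 6), the young mean was 12.49 ± 1.26 (SD, n = 5), and they differed by 1.18 ± 0.49 (SE; limma adjusted p = 0.572). In bulk RNA, fewer cells of a type and less RNA per cell cannot be told apart.

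With E00775cds_s_at, old ranged from 12.39 to 15.18 on the log2 scale (median 13.55), and young read 13.14, 11.55, 10.66, 13.33 and 11.27, with replicates 2, 3 and 5 again below every old array. Its difference was 1.71 ± 0.50 (SE; limma unadjusted p = 0.00300, adjusted p = 0.537), with 4 of 6 old arrays above every young one. With E00903cds_s_at, old ranged from 12.74 to 14.45 (median 13.63), and young read 13.24, 12.76, 10.59, 13.56 and 11.15. Here young replicate 2 joined replicates 1 and 4 within the range of the old arrays, and the difference was 1.41 ± 0.48 (SE; limma adjusted p = 0.560). X01118_at had the widest spread in old, from 11.66 to 15.52 (median 13.44), and young read 13.09, 11.01, 10.14, 12.45 and 10.74. Its difference of 1.87 ± 0.60 (SE; limma adjusted p = 0.560) placed it 23rd by height among all tested probe sets. Young replicate 3 was the lowest array for all 4 probe sets, while the highest was old replicate 1 for E00698cds_s_at and E00903cds_s_at and old replicate 4 for E00775cds_s_at and X01118_at.

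**Figure D1:**
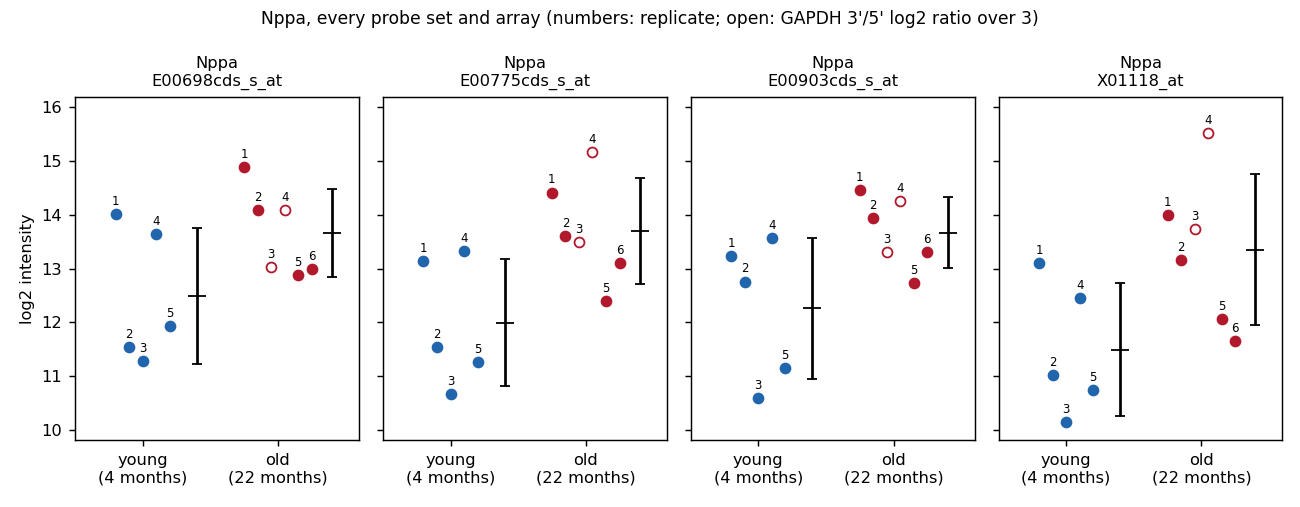
Log2 intensity of the 4 Nppa probe sets in each of 5 young (blue) and 6 old (red) arrays; numbers are replicates, open points are old replicates 3 and 4 with a GAPDH log2 ratio over 3, and black bars are the mean and SD. Young replicates 1 and 4 lie within the range of the old arrays in every panel, and young replicate 3 is the lowest array in every panel.

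The spike-in classes split the ages unevenly, so Nppa is also given within each class. With dim controls the 2 old arrays read 14.09 and 14.88 for E00698cds_s_at and the 4 young ones 11.28 to 14.02, a difference of 2.29 ± 0.65 (SE; limma adjusted p = 0.422). With bright controls the 4 old arrays read 12.88 to 14.09 and the single young one 13.65, which lay inside the old range. The difference there was -0.40, given with no test, since it rests on 1 young array. For E00775cds_s_at, E00903cds_s_at and X01118_at it was 0.21, -0.16 and 0.79, with the same limit. Whether the age difference varies with the class was not tested. Fitting this class as a block gave 1.28 ± 0.55 for E00698cds_s_at (SE; limma adjusted p = 0.926). Without old replicates 3 and 4 the 4 differences were 1.23, 1.39, 1.35 and 1.23, in the order E00698cds_s_at, E00775cds_s_at, E00903cds_s_at and X01118_at, so X01118_at moved from 1.87 to 1.23.

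The 4 probe sets ranked the arrays alike, as readings of 1 transcript do. Over 11 arrays, Pearson's r between pairs of them ran from 0.843 to 0.956 and Spearman's rho from 0.891 to 0.973, in 6 pairs. The largest permutation p was 0.00132 for r (adjusted p over the 6 pairs = 0.00132), and each p for rho was smaller. Without the 2 arrays farthest from the median, r was 0.778 to 0.915, and with each group's mean subtracted it was 0.755 to 0.929. Within an array, X01118_at minus E00698cds_s_at was 0.70 and 1.43 on the log2 scale in old replicates 3 and 4, both with a high GAPDH ratio. It lay between -1.33 and -0.53 in the other 9. The part of RNA quality in this was not tested.

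Nppb, read by rc_AA799498_at, hardly differed between the ages. Old ranged from 11.55 to 12.60 on the log2 scale (median 12.35), and young read 12.11, 12.21, 11.62, 12.30 and 11.67. Old replicates 1 to 4 lay above every young array, but old replicates 5 and 6 lay near the 2 lowest young ones. The old mean was 12.15 ± 0.43 (SD, n = 6) and the young mean 11.98 ± 0.31 (SD, n = 5), which differed by 0.16 ± 0.29 (SE; limma adjusted p = 0.905). The 95% interval of the ratio, 0.737 to 1.70, overlaps those of the Nppa probe sets, which were 1.11 to 4.60, 1.57 to 6.79, 1.33 to 5.31 and 1.53 to 8.66 in the order above. The difference was -0.31 among the bright arrays, with 1 young array and no test, 0.57 ± 0.30 among the dim ones (SE), and -0.13 when arrays were centred on their medians. Nppb also varied little from array to array: its SD within groups was 0.38, against a median of 0.90 over all tested probe sets, and 4.48% of these had a smaller one. For Nppa the SD within groups was 1.01 to 1.33.

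Whether the 2 peptides changed unequally was tested within each array, on the log2 value of Nppa minus that of Nppb. With E00698cds_s_at old arrays averaged 1.52 ± 0.62 (SD, n = 6) and young arrays 0.50 ± 1.10 (SD, n = 5). All 6 old arrays lay above the young mean, by a mean difference of 1.01 that did not pass (two-sided exact permutation p = 0.0974 over 462 splits). Young replicates 1 and 4 had ratios of 1.92 and 1.35, inside the old range of 0.65 to 2.54, while young replicates 2, 3 and 5 had -0.66, -0.34 and 0.25. With the other Nppa probe sets the difference was 1.54, 1.24 and 1.70 (exact permutation p = 0.0216, 0.0173 and 0.0346, and adjusted p = 0.0433, 0.0433 and 0.0462 over the 4 probe sets). These tests share the Nppb reading, read 1 Nppa transcript and were chosen with earlier results of these data known. Their adjustment covers only the 4 probe sets, while Nppa alone did not pass over all tested probe sets. With E00698cds_s_at the difference was 1.72 among the dim arrays and -0.087 among the bright ones, given here with no test for so few arrays. For the same probe set, leaving out 1 array gave 0.72 to 1.36. It was 1.36 without young replicate 1 (exact permutation p = 0.0190). It was 0.72, 0.80 and 0.81 without young replicate 2, young replicate 3 and old replicate 1 (exact permutation p = 0.219, 0.214 and 0.198). The other Nppa probe sets were not tried in these subsets.

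**Figure D2:**
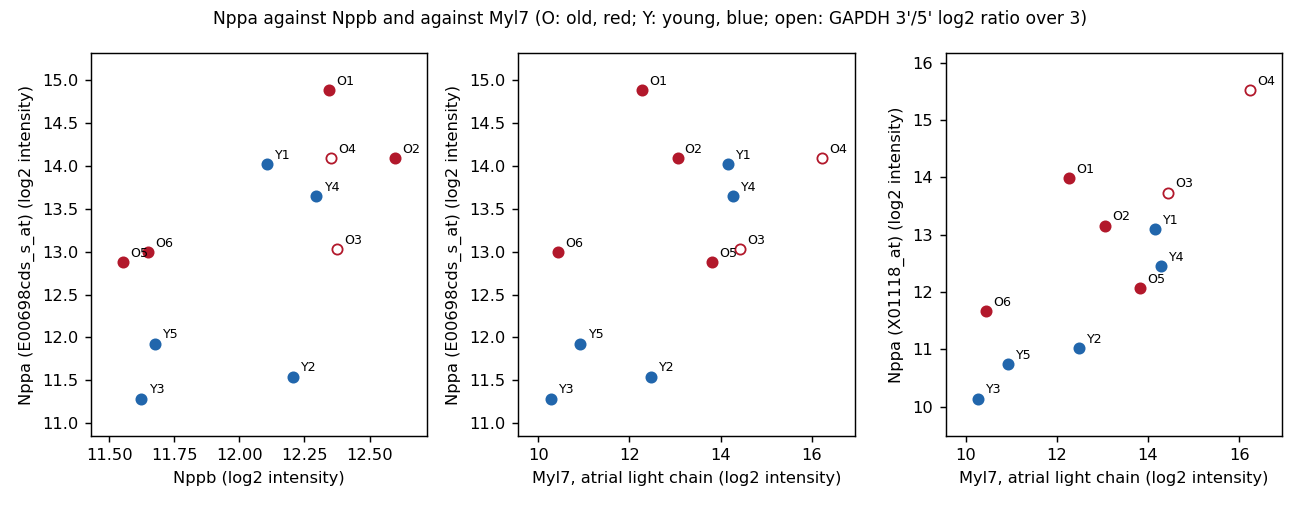
Log2 intensity of Nppa against that of Nppb (left) and of the atrial light chain Myl7 (centre and right), one point per array; O is old (red), Y is young (blue), and open points have a GAPDH log2 ratio over 3. Young replicates 1 and 4 have Nppa and Myl7 readings within the range of the old arrays, and old replicate 4 is highest for Myl7 and for X01118_at.

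Atrial muscle, the main source of Nppa, was followed by its own markers. Of 10 atrial markers listed, 7 were on the array and 5 were bright enough to test; 3 of the 5 read higher in old, and 0 passed. Their summed level spanned 12.84 to 16.70 on the log2 scale in old and 13.58 to 14.95 in young. Myl7, the atrial regulatory light chain, read from 10.44 to 16.23 in old, highest in old replicate 4. In young Myl7 read 14.16, 12.48, 10.27, 14.28 and 10.92, so the young arrays high for Nppa (replicates 1 and 4) were also the highest for Myl7. Its difference between the ages was 0.95 ± 0.82 (SE; limma adjusted p = 0.805). Myl4, the atrial essential light chain, differed by 0.83 ± 0.91 (SE; limma adjusted p = 0.849) and lay at the intensity floor, the lowest value used, in 2 arrays, among them old replicate 1, which had the highest reading of E00698cds_s_at. Pam, the amidating enzyme abundant in atrial granules, differed by 0.37 ± 0.38 (SE), the connexin Gja5 (M76535cds_at) by -0.13 ± 0.33 and the potassium channel Kcna5 by -0.12 ± 0.68. Another Gja5 probe set, AF022136_at, ranged from 8.14 to 9.56 in old and from 7.15 to 8.80 in young. Old replicate 4 was the highest array by AF022136_at and the lowest by M76535cds_at. The transcription factors Nr2f1 and Nr2f2 were too dim to test, with 3 and 2 arrays at the floor.

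Over the 11 arrays Nppa by X01118_at and Myl7 had a Pearson r of 0.795 (permutation p = 0.00398) and a Spearman rho of 0.709 (permutation p = 0.0180). After adjustment over 23 relations of Nppa with other members and atrial markers, these p-values were 0.0915 and 0.155, and none of the 23 passed by r or by rho. Without the 2 arrays farthest from the median (young replicate 3 and old replicate 4) this r was 0.552, and with group means subtracted it was 0.829. Within the 6 dim arrays r was 0.734 and within the 5 bright ones 0.816. For E00698cds_s_at and Myl7, r was 0.548 and rho 0.473 (permutation p = 0.0839 and 0.148, adjusted p = 0.226 and 0.284), with r = 0.602 without the 2 farthest arrays. Nppa by E00698cds_s_at and Nppb had an r of 0.612 and a rho of 0.700 (permutation p = 0.0498 and 0.0202, adjusted p = 0.209 and 0.155), with r = 0.481 without the 2 farthest arrays, 0.722 within the dim and 0.671 within the bright ones. The other atrial markers did not all go with Nppa. Gja5 by M76535cds_at was negative with all 4 Nppa probe sets, in their order above r = -0.578, -0.509, -0.282 and -0.431 (smallest adjusted p = 0.209). These relations used only each marker's probe set of highest mean, so other Gja5 probe sets such as AF022136_at were not covered. Kcna5 gave r = -0.064, 0.239, 0.098 and 0.251, and Pam gave r = 0.489, 0.530, 0.365 and 0.686. Myl4 gave r = 0.294, 0.516, 0.491 and 0.582, and without the 2 farthest arrays 0.621, 0.018, -0.130 and 0.149. For Myl7 with E00775cds_s_at and E00903cds_s_at, r was 0.678 and 0.622, and 0.319 and 0.190 without the 2 farthest arrays. The part of atrial tissue in the Nppa difference was not tested.

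Npr1, the receptor that both heart peptides act through, had 3 probe sets and none with a clear age difference. By J05677mRNA_s_at old ranged from 6.97 to 10.99 on the log2 scale (median 10.21), and young read 9.91, 10.59, 10.16, 10.40 and 9.94. Old replicate 6 alone gave the low value, and the next old array read 10.02. The difference of -0.31 ± 0.55 (SE; limma adjusted p = 0.905) turned to 0.27 ± 0.31 without old replicate 6, to 0.042 ± 0.36 with array weights and to 0.27 ± 0.37 with the replicate number as a block, a fit to which old replicate 6 adds nothing. S80456_s_at ranged from 6.07 to 9.08 in old and from 7.14 to 9.01 in young, and differed by 0.13 ± 0.59 (SE). S82229_s_at ranged from 7.68 to 9.49 in old and from 8.10 to 9.64 in young, and differed by -0.090 ± 0.46 (SE; limma unadjusted p = 0.830 and 0.846 for these probe sets). Old replicate 6 was not low for either of them, at 8.46 and 8.76. The 95% intervals of the ratio of old over young were 0.365 to 1.77, 0.463 to 2.58 and 0.484 to 1.82 in the same order, so these data show neither a change nor its absence within those bounds.

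Npr2, the cyclase receptor for the C-type peptide, was read by M26896_at. Old ranged from 7.61 to 9.20 on the log2 scale (median 8.59), and young read 8.32, 7.92, 8.58, 7.83 and 7.42. Old replicate 3 was low within its group and 4 of 6 old arrays lay above every young one. Old replicates 1 and 4 did so only barely, at 8.588 and 8.592 against 8.585 in young replicate 3. The difference was 0.51 ± 0.45 (SE; limma adjusted p = 0.815), a ratio of 1.42 with a 95% interval of 0.735 to 2.74. The difference was above 0 in each of 24 alternative fits, from 0.21 to 0.72. These fits reuse the same arrays, so the constant sign adds no support. The fit of bright arrays alone holds 1 young array.

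Npr3, the clearance receptor, was dim. By rc_AA945907_at old ranged from 3.98 to 8.86 on the log2 scale as deposited (median 7.29), and young read 3.45, 6.02, 6.65, 8.79 and 6.24. By S79624_at old ranged from 4.69 to 7.38 (median 6.02), and young read 4.07, 4.00, 5.34, 4.01 and 4.22. For S79624_at 5 of 6 old arrays read above every young one, but all 5 young arrays and 2 old ones lay below the floor of 5.57, under which readings have no order. The means with the floor applied differed by 0.42 and 0.75 in the same order, with no test in the main comparison. For S79624_at the value was 1.38 with the floor at the 10th percentile and 0.35 with it at the 30th, and for rc_AA945907_at it ran from 0.061 without old replicate 3 to 0.95 without young replicate 4, and was -1.51 among the bright arrays. When dim probe sets were tested as well, limma gave adjusted p-values of 0.896 and 0.721.

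**Figure D3:**
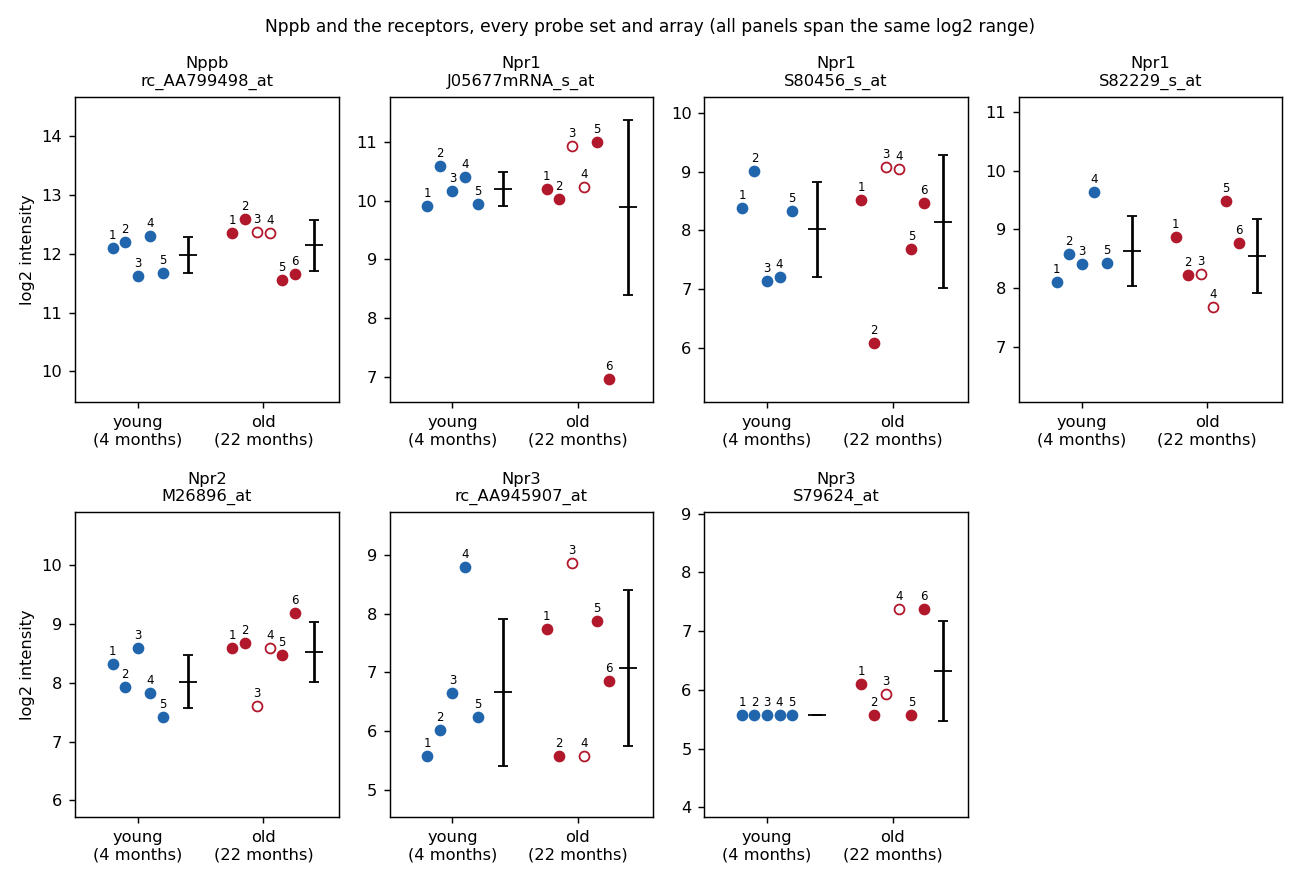
Log2 intensity of Nppb and of the receptor probe sets in each young (blue) and old (red) array, with the floor of 5.57 applied; numbers are replicates, open points have a GAPDH log2 ratio over 3, and black bars are the mean and SD. The panels span the same range, so the narrow spread of Nppb and the single low array of Npr1 (old replicate 6 at 6.97) can be seen side by side.

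**Figure D4:**
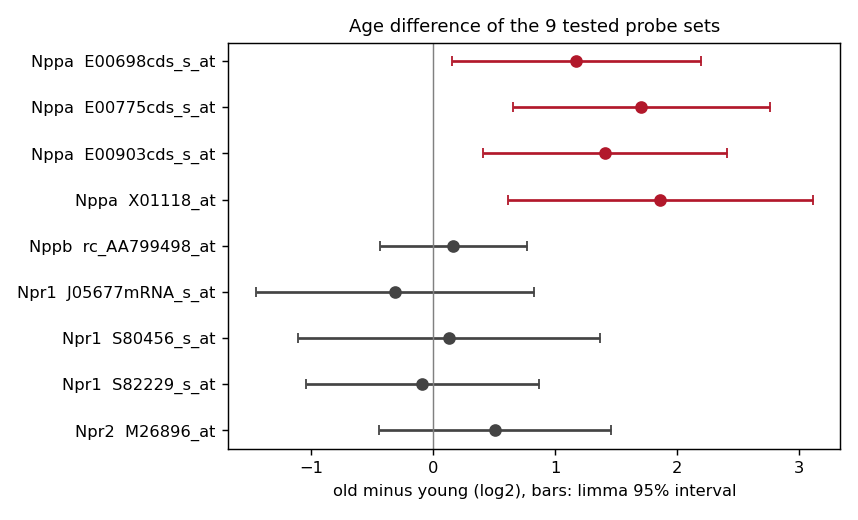
Old minus young on the log2 scale for the 9 tested probe sets, with limma's 95% intervals, which are not adjusted for the number of probe sets. The intervals of the 4 Nppa probe sets lie above 0, and those of Nppb, Npr1 and Npr2 include 0; after adjustment none of the 9 passed.

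The genes whose readings were most like those of Nppa (E00698cds_s_at) over the 11 arrays, among 3202 other tested genes, were Capn2, Rps10, Atp5if1, Lum and Wdfy3, with Pearson r from 0.780 to 0.900. Capn2, a subunit of calpain, had r = 0.900 and rho = 0.882, and differed between the ages by 0.48 ± 0.38 (SE). Lum, the matrix proteoglycan lumican, had r = 0.782 and rho = 0.655, and differed by 1.19 ± 0.37 (SE; limma adjusted p = 0.537). The genes most like Nppb were Flnc, F3, Armc6, Timm29 and Sub1, with r from 0.839 to 0.887, led by the muscle filamin Flnc. These are the highest of 3202 correlations each, so no p is given, and with group means subtracted 2 of the 5 were again in the 5 most like Nppa and 2 of the 5 in those most like Nppb.

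Genes listed for peptide processing and breakdown, together with the C-type peptide, gave no common direction. Of 7 tested genes 5 read higher and 2 lower in old, with a median difference of 0.10 against -0.01 over all 3206 tested genes, and 0 passed. Furin, a proprotein convertase, differed by 0.56 ± 0.41 (SE; limma adjusted p = 0.768). Pcsk6, the convertase known to activate the Nppa-cleaving protease corin, lay below the young mean in all 6 old arrays, at 8.98 ± 0.96 (SD, n = 6) against 10.15 ± 0.46 (SD, n = 5), a difference of -1.17 ± 0.45 (SE; limma adjusted p = 0.560). Pam had the third smallest p and is given above, and Nppc, the C-type peptide, differed by 0.0043 ± 0.69. Mme, the neprilysin that degrades natriuretic peptides, was too dim to test.

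Genes of cGMP signalling other than Npr1 and Npr2, among them nitric oxide synthases, other cyclases, phosphodiesterases and channels, were evenly divided. Of 18 tested genes 9 read higher and 9 lower in old, with a median of -0.0017 and 0 past the threshold. Cnga2, a cyclic nucleotide-gated channel, differed by 1.63 ± 0.64 (SE; limma adjusted p = 0.560), with 3 arrays at the floor. Pde3b, a phosphodiesterase inhibited by cGMP, differed by 1.29 ± 0.65 (SE), and Gucy1a1, a subunit of the nitric oxide receptor, by 1.23 ± 0.66. Among regulators of the natriuretic peptide genes, 3 of 10 tested read higher and 7 lower, with a median of -0.27 and 0 past the threshold. Hand2, a cardiac transcription factor, differed by -1.44 ± 0.63 (SE; limma adjusted p = 0.609) and Mef2d by -1.03 ± 0.58. Ankrd1, a stretch-responsive muscle protein, differed by 0.62 ± 0.32 (SE), while Gata4, a factor that binds GATA elements, differed by 0.36 ± 0.46.

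In the list of fetal and load genes, some of which often accompany Nppa in a strained ventricle, 9 of 13 tested genes read higher. The median was 0.089, and 0 passed. The list also holds the adult genes Myh6, at -0.25 ± 0.32 (SE), and Atp2a2, counted as higher at 0.016 ± 0.36. Its count therefore does not measure 1 programme, and Ankrd1, Myl4 and Myl7 are in other lists too. The smallest p-values were those of Ankrd1, Acta2, an actin of smooth muscle, at 0.99 ± 0.75 (SE), and Actc1, the cardiac actin, at 0.42 ± 0.36. Myh7, the slow myosin heavy chain, differed by 0.24 ± 0.31 and Acta1, the skeletal actin, by -0.092 ± 0.40, both within their standard errors. Over all tested genes 49.7% read higher in old.

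**Figure D5:**
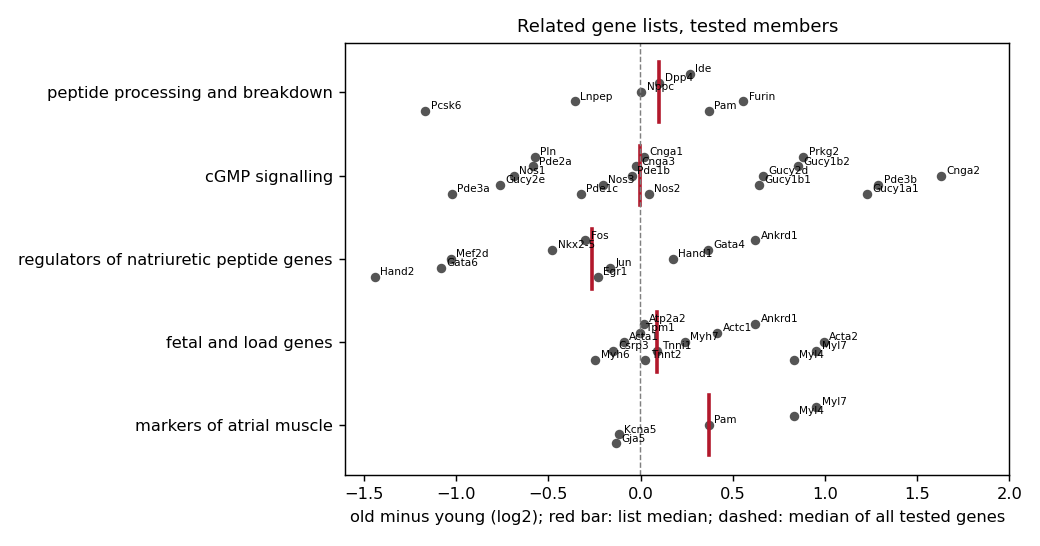
Old minus young on the log2 scale for the tested genes of 5 related lists, 1 point per gene with its symbol; red bars are list medians and the dashed line is the median of all tested genes. The medians run from -0.27 for regulators of the natriuretic peptide genes to 0.37 for atrial markers, and genes of every list lie on both sides of 0.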

How the data were processed

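RNA of rat heart ventricle was read on 11 Affymetrix arrays, 6 old and 5 young. The deposited intensity values are linear, 1 per probe set and array, and the sources used here do not give the software behind them. As deposited, every array had nearly the same mean after trimming 2% at both ends (499.63 to 499.99), so changes are relative to other transcripts of the same array. That scaling was kept. Lower values were set to a floor of 47.4, the 20th percentile, before log2 was taken. The fit omitted 59 control probe sets and any with a mean below the 40th percentile. The age groups were tested with limma 3.58.1 (R 4.3.3; lmFit, eBayes with a trend, Benjamini-Hochberg, threshold 0.05). The number of arrays limits the precision. A gene's tested probe set with the highest mean stood for it in lists.

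The within-array difference of Nppa and Nppb was tested by exact permutation, and correlations by 100000 permutations. Every member probe set is named, with the 3 list genes of smallest p and the 5 genes most like each peptide. Nppc, Mme, Gata4, Myh7 and Acta1 were singled out after their values were seen. Lists described are peptide processing, cGMP signalling, regulators of natriuretic peptide genes, fetal and load genes, and cell type markers. The members and lists were chosen with earlier results of these data known. Gene symbols came from the platform annotation, which gave a single symbol to 7006 probe sets, more than 1 to 308 and no symbol to 1426; 6985 of the single symbols matched RefSeq (GRCr8) by gene number, with 0 changed. Promoters were found for 4 of the 5 members. Scripts were tested on simulated data. Alternatives were other floors, filters and scalings, no trend, array weights, a replicate block, the spike-in class as a block or alone, and leaving out arrays.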

Additional observations from a re-analysis of the deposited data

Results flagged for a closer look

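In 18 groups of readings (9 tested probe sets in 2 ages), 1 array stood farther from its group than a test for single outlying values allows. Old replicate 6 read 6.97 on the log2 scale for Npr1 by J05677mRNA_s_at, while the next lowest old array read 10.02. Chance alone would mark about 1 group in 20.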

How the results depend on the processing

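There were 24 alternatives to the main fit. The bright arrays alone, with 1 young array, give differences and are not counted as a test. In the other alternative fits 0 of the member probe sets passed an adjusted p of 0.05. Over all tested probe sets the count was taken in 22 fits, since the dim arrays alone were left out of it too. It was 0 in 21 of the 22. The exception was without old replicate 5, where it was 2 (range 0 to 2 over the fits that leave out 1 array). E00775cds_s_at and X01118_at of Nppa and M26896_at of Npr2 kept their direction in all 24, which reuse the same arrays. Among the bright arrays, which hold 1 young array, the sign was opposite for Nppa by E00698cds_s_at (-0.40) and E00903cds_s_at (-0.16), for Nppb (-0.31), for Npr3 by rc_AA945907_at (-1.51, from 0.42) and for Nppa minus Nppb (-0.087). Leaving out 1 array in turn gave 0.88 to 1.56 for E00698cds_s_at and 0.074 to 0.28 for Nppb. Centring arrays on their medians moved the median of all tested probe sets to -0.30, from -0.01 (31.0% higher in old, from 49.4%); there the 4 Nppa probe sets were at 0.88, 1.42, 1.12 and 1.57, Nppb was at -0.13, 0.17 above that median as before, and Npr1 by S80456_s_at at -0.16. Quantile normalization moved that median to -0.12 (42.1% higher) and S80456_s_at to -0.053. For Npr1 by J05677mRNA_s_at the value turned to 0.042 with array weights and to 0.27 with the replicate block, and ran from -0.53 to 0.27 without 1 array. S80456_s_at turned to -0.44 with array weights, -0.068 with the spike-in block, -0.92 among the dim arrays and -0.33 without the arrays of high GAPDH ratio, and ran from -0.090 to 0.54 without 1 array. S82229_s_at turned to 0.12, 0.17 and 0.20 with array weights, among the dim arrays and without the arrays of high GAPDH ratio, and ran from -0.28 to 0.16 without 1 array. Nppa by E00698cds_s_at minus Nppb ran from 0.72 to 1.36 without 1 array and passed without young replicate 1 (1.36). With all arrays it passed by the other Nppa probe sets (1.54, 1.24 and 1.70), which were not tried with arrays left out. The causes of these changes were not tested.

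The labels do not say whether replicate numbers pair the arrays. Same-numbered old and young arrays had correlations of -0.25 to 0.25 in their deviations from the group means. Of 5 old arrays, 1 correlated best with its own number. So few arrays cannot settle whether they were paired. The replicate block leaves old replicate 6 without weight. With it E00698cds_s_at differed by 1.31 ± 0.35 and X01118_at by 2.20 ± 0.40 (SE). Their limma adjusted p-values were 0.437 and 0.137, and 0 probe sets passed. In the main fit these standard errors were 0.49 and 0.60. The spike-in and GAPDH settings of Nppa minus Nppb, and its median centring (1.01), were added after the data were seen. Median centring shifts both readings of an array alike, so that value could not differ from the main one.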

Other observations

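Markers of other tissue parts gave these values beside Nppa, each with 0 genes past the threshold. Smooth muscle markers read higher in old in 4 of 4 tested genes (median 1.05), red cell markers in 3 of 3 (1.29) and fat cell markers in 3 of 4 (0.82). Ventricular markers read higher in 3 of 6 (0.04), fibroblast markers in 3 of 6 (-0.0051) and macrophage markers in 1 of 2 (0.26). Endothelial markers (-0.72) and markers of nerve and conduction (-0.26) read higher in 0 of 2 each. Their part in the Nppa difference was not tested.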
